A study of Solanum lycopersicum with 18 samples.

Results

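The 4 genes described here are the HSFA1 paralogues of tomato (Solanum lycopersicum): HSFA1a (Solyc08g005170.3), HSFA1b (Solyc03g097120.3), HSFA1c (Solyc08g076590.3) and HSFA1e (Solyc06g072750.3). They were chosen by identifier, 4 of the 35821 genes in the count table, and all 4 are among the 15312 genes that passed the filter on low counts. Moneymaker plants were grown at 24 °C with 16 h of light, and RNA-seq was performed on the fourth leaf at 4 weeks of age. The groups were plants of 2 hsfa1a knock-down lines exposed to 45 °C for 1 h (6 libraries), wild type (WT) plants under the same heat stress (HS) for 1 h (3 libraries), the knock-down lines at 0 h (6 libraries) and WT at 0 h (3 libraries). Both lines carry a hairpin RNA construct against HSFA1a, that is, RNA interference with the gene left in place, and each line is 1 transgenic event. Plants were pooled for each replicate, and neither their number nor the promoter of the construct is given in the sources used here. The count table names the lines CS2 and CS3, with 3 libraries of each at each time, whereas the sample labels call them line 1 and line 2, and the pairing of these names is not stated. Names follow the count table here.

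Class A1 heat stress factors (HSFs) stand at the start of the heat response of plants. At rest they are held inactive by the chaperones HSP70 and HSP90. When heat produces misfolded proteins the chaperones are drawn away, and the released HSFs bind heat shock elements in the promoters of chaperone genes and of further HSF genes such as HSFA2. In tomato HSFA1a is known as the master regulator of this response, while the A1 genes share a DNA-binding domain and act redundantly in Arabidopsis. The comparison addresses whether any of the paralogues changed in plants where HSFA1a is targeted.

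In coordinates of the M82 assembly, HSFA1a lies on chromosome 8 between 127049 and 132599 (minus strand). It was the only 1 of the 4 with a symbol in the RefSeq gene table used here, where HSFA1A shared 13 of 14 neighbouring genes at matching distances with it, against 6 for the next best gene. HSFA1b spans 55533569 to 55536760 on chromosome 3 (minus strand), HSFA1c spans 61373603 to 61377811 on chromosome 8 (minus strand), and HSFA1e spans 47487044 to 47490039 on chromosome 6 (plus strand). These positions are whole gene spans, introns included. Within HSFA1c lie 2 short annotated genes on the opposite strand with at most 1 count in any library; counting was by strand. The other 3 overlapped no gene. How far reads of 1 paralogue could align to another was not tested. The oligonucleotides with which the study quantified HSFA1a mRNA by PCR are shown because they define the assay for the targeted gene, independent of the read counts; their place within the gene was not determined.
SlHSFA1a-Q1-FP: gtcgtggagtcctacgaataat
SlHSFA1a-Q1-RP: cataagtattcagctgccgaac

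Total counts were between 1713285 and 3669618 per library, and lower at 1 h than at 0 h except in CS2 1 h replicate 3, the deepest library, which stood apart from the other 1 h libraries (1713285 to 2393059). For HSFA1a, HSFA1b and HSFA1c, the difference of CS2 from WT at 1 h is also given without it. The heat treatment was visible in every genotype: HSFA2, the HSF that A1 factors switch on first, was higher at 1 h than at 0 h by 7.08 in CS2, 7.06 in CS3 and 7.25 in WT on the log2 scale. At 0 h HSFA2 had 4 to 16 counts per library, and it passed the filter only through the libraries at 1 h. The size of these rises thus rests on counts near the floor. The leaf label fitted the counts: 4 leaf markers that could be named, a Rubisco small subunit and chlorophyll a/b-binding proteins, had 330 to 975 counts in every library. Of the markers of other tissues, the fruit gene PG2 had 0 counts throughout and the pollen gene LAT52 0 to 2. The leaf markers summed to 759 to 1518 CPM in CS2 at 1 h, 1072 to 1339 CPM in CS3 and 1001 to 1143 CPM in WT. Their highest counts reached 0.383 to 0.734 per base of the gene span. Duplicate reads had been removed, which can hold counts down at this density. CAB3A, for example, had 382 to 401 counts in CS2 at 1 h, over totals of 1713285 to 3669618. The sums are therefore no measure of leaf content, and the part of duplicate removal in them was not tested. In such bulk RNA, fewer cells of a type and less RNA per cell cannot be told apart.

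Counts on HSFA1a, the targeted gene, were higher in both knock-down lines than in WT after 1 h of HS, while those on HSFA1b were lower in both lines. HSFA1c was lower in CS2 and HSFA1e did not pass the test in either line. Values are read counts relative to library size (CPM), scaled between libraries by TMM, and tests are edgeR's quasi-likelihood test with Benjamini-Hochberg adjustment over the 15312 genes. At an adjusted p under 0.05, CS2 differed from WT at 1 h in 1 HSFA1 gene that was higher, where 17.8% of all tested genes were, and in 2 that were lower, where 15.3% were. In CS3 the count was 1 higher (11.9% of all genes) and 1 lower (12.4% of all genes). With such backgrounds, the number of members called is no result by itself, and the values of each gene follow.

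**Figure D1:**
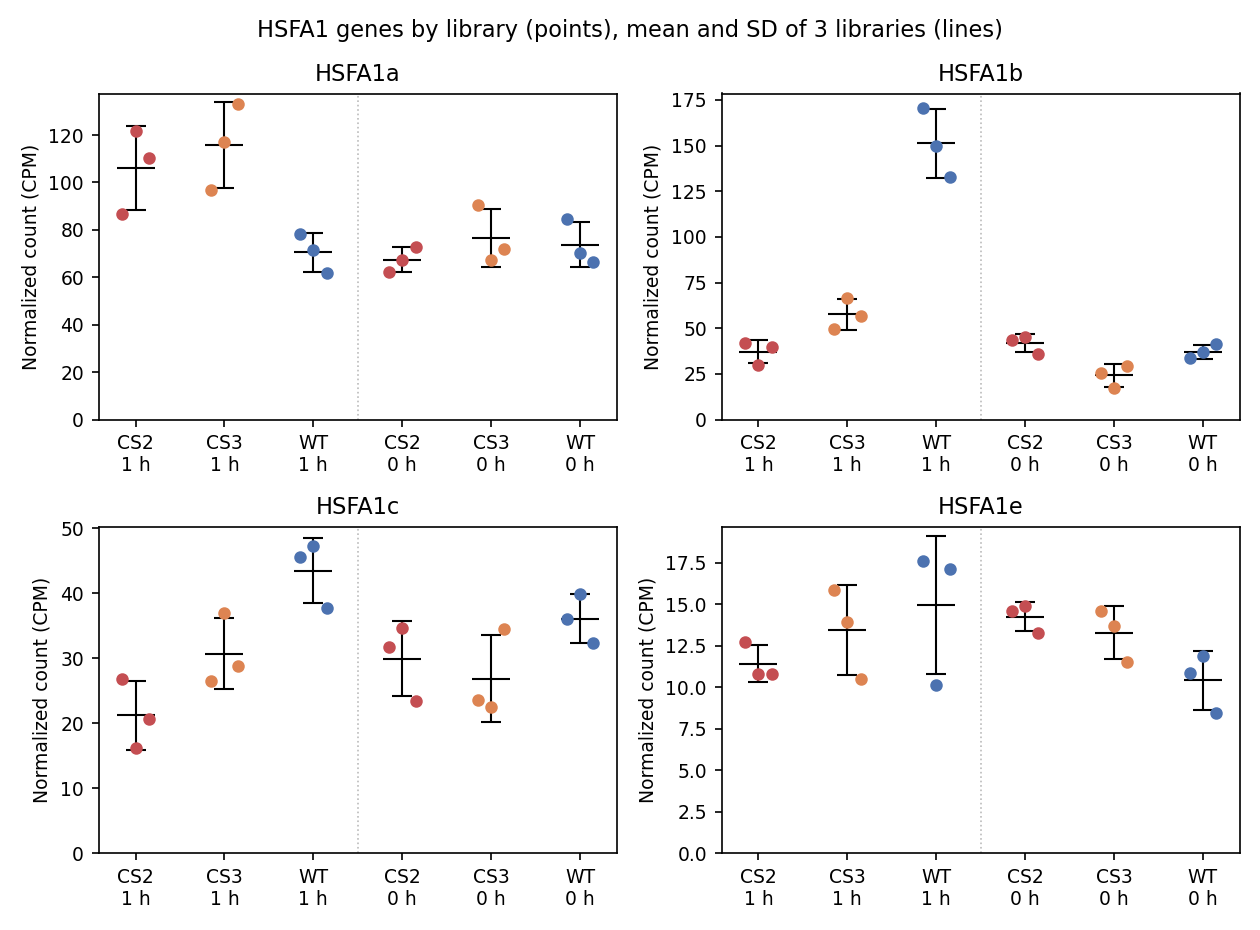
Normalized counts (CPM, y axis, a scale of its own for each gene, from 0) of the 4 HSFA1 genes in the libraries of CS2, CS3 and WT at 1 h and at 0 h of HS (x axis). Points are libraries, and black lines give the mean and SD of 3 libraries. HSFA1b stands at 133 to 171 CPM in WT at 1 h and at or below 66.7 CPM in every other library, and all line libraries of HSFA1a at 1 h lie above those of WT.

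At 1 h the CS2 libraries (replicates 1 to 3) held 86.9, 122 and 110.3 CPM of HSFA1a, the CS3 libraries 96.9, 117 and 133 CPM, and the WT libraries 78.1, 71.6 and 61.9 CPM. All 6 line libraries lay above all 3 WT libraries (15.9% of all tested genes did so). The difference of mean log2 CPM was 0.64 (two-sided exact permutation test over libraries, p = 0.0119, which is the lowest possible with 84 assignments). On the 4 genes 8 such tests were made, with p-values not adjusted. Permutation tests here treat the 6 line libraries as independent, although they come from 2 transgenic events. Their p-values thus speak for these libraries and not for further lines. The fitted log2 fold change was 0.60 in CS2 (standard error 0.158, edgeR adjusted p = 0.00672) and 0.72 in CS3 (standard error 0.159, edgeR adjusted p = 0.00303), or 1.52-fold and 1.65-fold. These values stayed between 0.50 and 0.82 with any single library left out. Without CS2 1 h replicate 3 the value for CS2 was 0.58 (edgeR adjusted p = 0.0247).

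At 0 h the CS2 libraries held 62.2, 67.3 and 72.8 CPM of HSFA1a, the CS3 libraries 90.3, 67.4 and 72.2 CPM, and the WT libraries 84.5, 70.3 and 66.7 CPM. The groups overlapped. The log2 fold change was -0.13 in CS2, with a 95% interval of -0.45 to 0.19, and 0.06 in CS3, with an interval of -0.26 to 0.38. As a fold of the WT level, the lower bounds were 0.731 in CS2 and 0.833 in CS3. Neither time thus showed fewer counts on the targeted gene in the libraries labelled CS2 and CS3. The paper states that the construct lowers HSFA1a expression and refers to a supplementary figure for it. That measurement was not seen here and was not compared with these counts. The table gives 1 count for each gene span, so native HSFA1a mRNA and hairpin RNA cannot be told apart, and the position of the reads within the gene was not measured. The highest count of HSFA1a was 0.0701 per base of its span. The highest count per base was 0.103 for HSFA1b, 0.0342 for HSFA1c and 0.0187 for HSFA1e, introns included. Duplicate reads had been removed, and the part of this in the counts was not tested.

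For HSFA1b, an A1 factor of the same activator class, the CS2 libraries held 42.1, 29.9 and 39.7 CPM at 1 h, the CS3 libraries 49.8, 66.7 and 56.6 CPM, and the WT libraries 171, 149.9 and 133 CPM. The highest line library held 66.7 CPM, below the lowest WT library at 133 CPM, and 15.7% of all tested genes were likewise separated in this direction. The log2 fold change was -2.02 in CS2 (standard error 0.176, edgeR adjusted p = 2.1e-07) and -1.39 in CS3 (standard error 0.171, edgeR adjusted p = 1.7e-05), so that CS2 stood at 0.247 and CS3 at 0.381 of the WT level. By p, HSFA1b ranked 54 of the 15312 genes in CS2 and 134 in CS3. It was the HSFA1 gene with adjusted p under 0.05 and a lower level in both lines, which held for 9.61% of all tested genes. By library, the difference of mean log2 CPM was -1.70 (exact permutation test, two-sided, p = 0.0119). Single libraries left out moved the fitted values within -2.12 to -1.89 for CS2 and within -1.50 to -1.30 for CS3. Without CS2 1 h replicate 3 the value for CS2 was -2.09 (edgeR adjusted p = 4.3e-06).

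Without HS, the CS2 libraries held 43.7, 45.5 and 36.1 CPM of HSFA1b, the CS3 libraries 25.8, 17.2 and 29.6 CPM, and the WT libraries 33.6, 36.8 and 41.2 CPM. The CS2 libraries overlapped with WT, and all 3 CS3 libraries lay below all 3 WT libraries, as for 7.33% of all tested genes. Neither line passed the threshold: the log2 fold change was 0.17 in CS2 (edgeR adjusted p = 1) and -0.61 in CS3 (unadjusted p = 0.00383, edgeR adjusted p = 0.196). At 0 h only 0.0522% of all tested genes were called in CS2 and 0.229% in CS3.

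For HSFA1c, also of this class, the CS2 libraries held 26.7, 16.2 and 20.7 CPM at 1 h, the CS3 libraries 26.5, 37.0 and 28.8 CPM, and the WT libraries 45.5, 47.2 and 37.7 CPM. All 6 line libraries lay below the lowest WT library, as for 15.7% of all tested genes, the nearest being CS3 replicate 2 (37.0 CPM) and WT replicate 3 (37.7 CPM). The log2 fold change was -1.05 in CS2 (standard error 0.217, edgeR adjusted p = 0.00107), or 0.482 of the WT level, and -0.51 in CS3 (standard error 0.211, edgeR adjusted p = 0.0894). For CS2 it was -1.04 without CS2 1 h replicate 3 (edgeR adjusted p = 0.00659). A fit of only the libraries compared brought CS3 past the threshold (edgeR adjusted p = 0.0343). The difference of CS2 from CS3 at 1 h did not pass the threshold: it was -0.55 with a 95% interval of -1.02 to -0.08 (edgeR adjusted p = 0.227; 2.35% of all genes were called). By library, both lines against WT gave a difference of -0.77 in mean log2 CPM (exact permutation test, two-sided, p = 0.0357). This p was between 0.0179 and 0.0714 with 1 library left out, and over 0.05 without CS2 replicate 1 (0.0536), CS3 replicate 1 or 3 (0.0536 each) or any WT replicate (0.0714 each). At 0 h the CS2 libraries held 31.8, 34.6 and 23.4 CPM of HSFA1c, the CS3 libraries 23.7, 22.5 and 34.5 CPM, and the WT libraries 36.0, 39.9 and 32.4 CPM. The groups overlapped, and the log2 fold changes were -0.27 in CS2 (edgeR adjusted p = 1) and -0.43 in CS3 (edgeR adjusted p = 0.382).

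HSFA1e had the lowest counts of the family, 19 to 56 per library. It passed the filter of 50 counts in 2 libraries through 3 libraries at 0 h, none of them WT. At 1 h the CS2 libraries held 12.7, 10.8 and 10.8 CPM, the CS3 libraries 15.9, 13.9 and 10.5 CPM, and the WT libraries 17.6, 10.2 and 17.1 CPM. The groups overlapped, with 95% intervals of the log2 fold change of -0.94 to 0.13 in CS2 and -0.70 to 0.37 in CS3. As a fold of the WT level the lower bounds were 0.520 in CS2 and 0.615 in CS3, so that falls to these levels lie within the intervals. At 0 h the CS2 libraries held 14.6, 14.9 and 13.3 CPM, the CS3 libraries 14.6, 13.7 and 11.5 CPM, and the WT libraries 10.9, 11.9 and 8.47 CPM. Of the 6 line libraries 5 lay above all WT libraries. Since the gene passed the filter only through line libraries at 0 h, these levels are given as a description. edgeR's test of both lines against WT at 0 h gave an adjusted p of 0.760, where 0.163% of all genes were called. At 1 h the permutation p was 0.298, but 0.0357 without WT replicate 2, the WT library with 10.2 CPM.

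**Figure D2:**
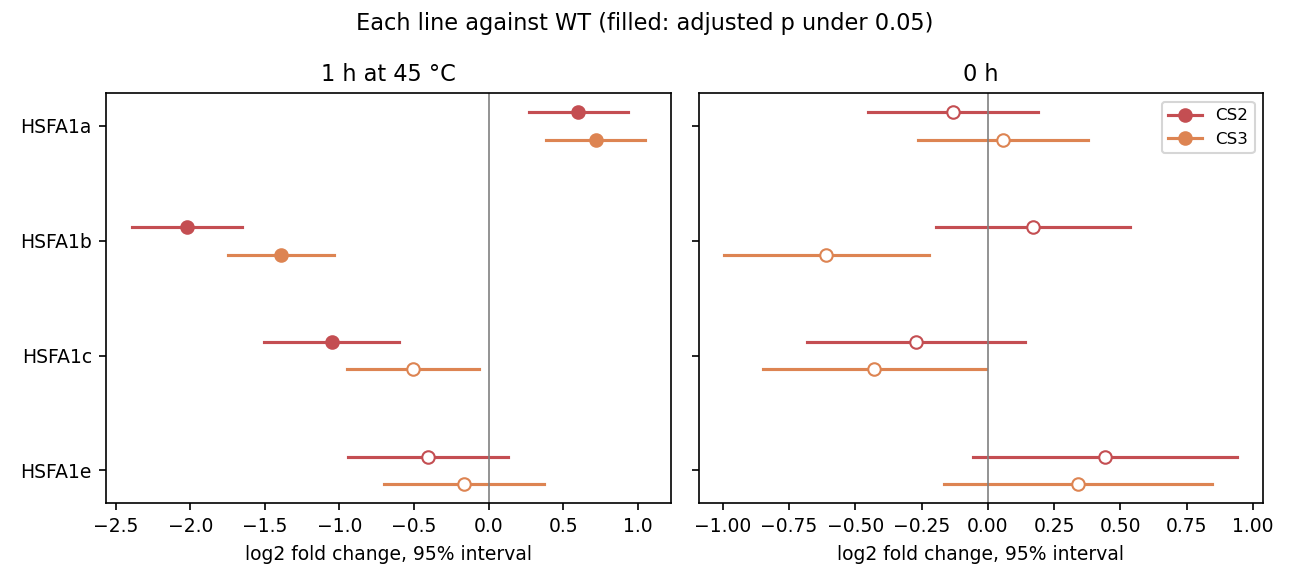
Log2 fold change against WT (x axis) of each HSFA1 gene in CS2 (red) and CS3 (orange) at 1 h (left) and 0 h (right), with 95% intervals from edgeR; filled points have an adjusted p under 0.05. At 1 h HSFA1a lies right of 0 in both lines and HSFA1b left of it at -2.02 in CS2 and -1.39 in CS3, and at 0 h no point is filled. The points of HSFA1e at 0 h are a description only.

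In WT, HSFA1b rose with heat and HSFA1a did not pass the test; in the lines HSFA1a rose, and HSFA1b rose in CS3 but did not pass the test in CS2. The log2 fold change of HSFA1b at 1 h against 0 h was -0.17 in CS2 (95% interval -0.55 to 0.21, edgeR adjusted p = 0.442), 1.24 in CS3 (standard error 0.186, edgeR adjusted p = 2.6e-05) and 2.02 in WT (standard error 0.171, edgeR adjusted p = 2.5e-08). In WT this was a 4.07-fold rise to a mean of 151 ± 18.9 CPM at 1 h, against 37.2 ± 3.86 CPM at 0 h (SD, n = 3 each). A rise was called for 28.7% of all tested genes in CS2, 26.7% in CS3 and 24.2% in WT. Of the tested genes, 97.05% had a lower log2 fold change between the times in WT than HSFA1b.

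Heat responses were also compared between genotypes by an interaction term. That of HSFA1b differed from the WT response by -2.19 in CS2 (standard error 0.247, edgeR adjusted p = 2.0e-05; 9.35% of all genes were called lower) and by -0.78 in CS3 (standard error 0.251, edgeR adjusted p = 0.0536; 5.3% were called lower). The value in CS3 crossed the threshold under several settings, with an adjusted p of 0.0359 in DESeq2, 0.00968 without CS3 0 h replicate 2 and 0.0443 without CS3 1 h replicate 2. The response of HSFA1b in CS2 was also below that in CS3, by -1.41 on the log2 scale (standard error 0.259, edgeR adjusted p = 0.0355; 0.104% of all genes were called), a comparison added after the data were seen. It lost the threshold without CS2 0 h replicate 1 (0.0948) or 2 (0.142), CS3 0 h replicate 1 (0.0755) or 2 (0.058), CS2 1 h replicate 2 (0.158) or 3 (0.0956), and CS3 1 h replicate 2 (0.135) or 3 (0.0800), and in a fit of these libraries alone (0.111). With the replicate block its adjusted p was 0.0532. CS2 and CS3 stood in opposite order at the 2 times, with differences of -0.63 at 1 h (edgeR adjusted p = 0.0807) and 0.78 at 0 h (edgeR adjusted p = 0.422; 0.0261% of all genes were called), neither past the threshold.

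HSFA1a was higher at 1 h than at 0 h by 0.66 in CS2 (standard error 0.153, edgeR adjusted p = 0.00139) and by 0.59 in CS3 (standard error 0.153, edgeR adjusted p = 0.00363), against -0.07 in WT (95% interval -0.40 to 0.26, edgeR adjusted p = 0.739). The response differed from that in WT by 0.73 in CS2 (edgeR adjusted p = 0.0247; 10.4% of all genes were called higher) and by 0.66 in CS3 (edgeR adjusted p = 0.0636; 4.96% of all genes were called higher). Both depended on single libraries. In CS2 the adjusted p was 0.0604 without CS2 0 h replicate 1, 0.0613 without WT 0 h replicate 1, 0.0764 without CS2 1 h replicate 2 and 0.0743 without WT 1 h replicate 3. In CS3 it was 0.0362 without CS3 0 h replicate 1 and 0.0487 without CS3 1 h replicate 1. Scaling by library size moved the median of all genes by -0.18 in each line and -0.14 in WT between the times, and the rise of HSFA1a then was 0.49 in CS2 and 0.41 in CS3.

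HSFA1c did not pass the test between the times in CS3 (0.19, edgeR adjusted p = 0.478) or WT (0.26, edgeR adjusted p = 0.289). In CS2 it fell by 0.52 on the log2 scale (edgeR adjusted p = 0.0476; 26.2% of all genes were called lower), a call lost without CS2 0 h replicate 1 or 2 (0.114 and 0.170) or CS2 1 h replicate 2 or 3 (0.203 and 0.1096), in DESeq2 (0.0533), and with the replicate block (0.0617). Its heat response in CS2 minus that in WT was -0.78 (edgeR adjusted p = 0.0681), which passed without CS2 0 h replicate 3 (0.0361) or CS2 1 h replicate 1 (0.0296). HSFA1e had log2 values of -0.33 in CS2, 0.01 in CS3 and 0.52 in WT between the times. That in WT did not pass the threshold, and those in the lines are a description. Without WT 1 h replicate 2 the value of HSFA1e in WT was 0.73 (edgeR adjusted p = 0.0261). The response of HSFA1e in CS2 against that in WT is likewise given as a description only. Such values include the line levels at 0 h through which the gene passed the filter. The difference was -0.85, and -1.06 without WT 1 h replicate 2.

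**Figure D3:**
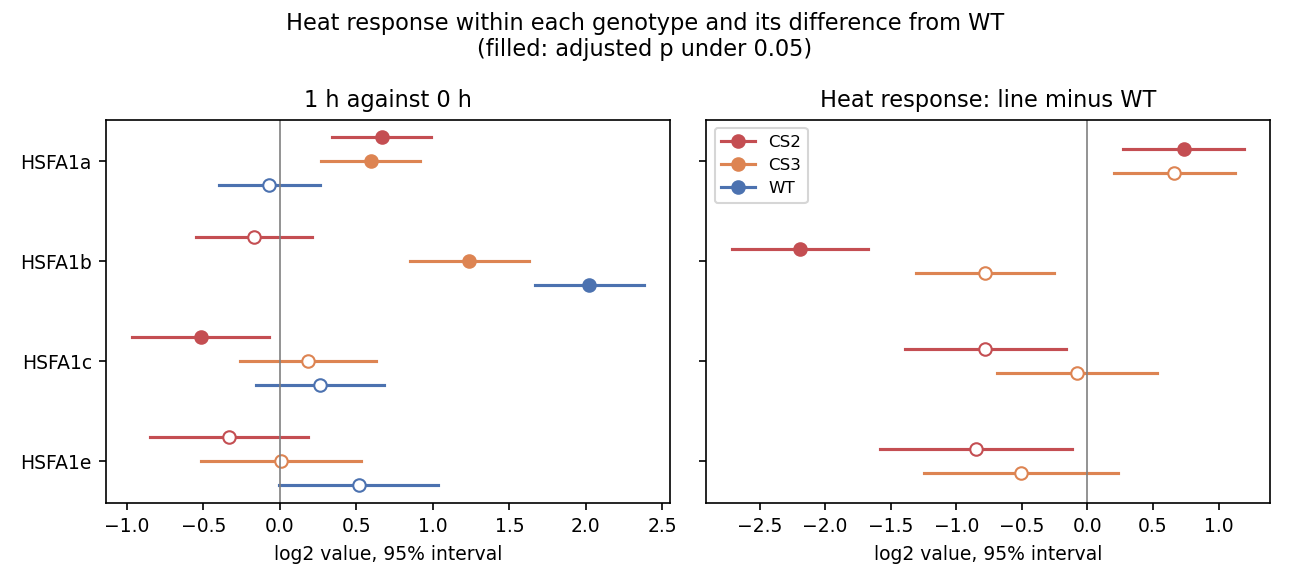
Left, log2 fold change of 1 h against 0 h (x axis) within CS2 (red), CS3 (orange) and WT (blue) for each HSFA1 gene; right, the heat response of CS2 and of CS3 minus that of WT. Lines are 95% intervals from edgeR and filled points have an adjusted p under 0.05. HSFA1b spreads from -0.17 in CS2 through 1.24 in CS3 to 2.02 in WT, and HSFA1a lies at 0.66 in CS2, 0.59 in CS3 and -0.07 in WT. Values of HSFA1e that include the lines at 0 h are a description only.

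Because a ratio within a library needs no scaling between libraries, HSFA1a was also set against each paralogue in the same library. At 1 h every line library lay above WT in HSFA1a and below WT in HSFA1b and HSFA1c. A separation of the ratios to HSFA1b and HSFA1c at 1 h follows from these levels. The permutation tests of these ratios at 1 h thus add no separate support. There were 2.06, 4.04 and 2.77 HSFA1a counts for each HSFA1b count in CS2 and 1.94, 1.75 and 2.35 in CS3 at 1 h, against 0.458, 0.479 and 0.466 in WT. The order of the pair was thus opposite in the lines and in WT at 1 h, in every library. The mean log2 ratio was 1.25 ± 0.438 in the lines (SD, n = 6 libraries, CS2 and CS3 together) and -1.10 ± 0.032 in WT (SD, n = 3). The difference was 2.35 (exact permutation test over libraries, two-sided, p = 0.0119). At 0 h the ratio was 1.42 to 3.89 in the lines and 1.61 to 2.51 in WT (exact permutation test, two-sided, p = 0.619).

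The ratio of HSFA1a to HSFA1c was 3.15 to 7.42 in the lines and 1.51 to 1.71 in WT at 1 h. The lack of overlap follows from the levels of both genes. The mean log2 ratio differed by 1.42 (exact permutation test, two-sided, p = 0.0119). At 0 h it was 1.94 to 3.8 in the lines and 1.76 to 2.34 in WT (exact permutation test, two-sided, p = 0.298). The ratio to HSFA1e overlapped between the groups, at 6.02 to 12.5 in the lines and 3.58 to 6.90 in WT at 1 h, and at 4.24 to 6.2 in the lines and 5.85 to 7.72 in WT at 0 h. At 1 h its p was 0.0476 (exact permutation test, two-sided), and over 0.05 when any 1 of 7 of the 9 libraries was left out (all but CS3 replicate 1 and WT replicate 2, up to 0.179). At 0 h it is given as a description, as for the level of HSFA1e. These were 6 tests in all, with p-values that were not adjusted.

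**Figure D4:**
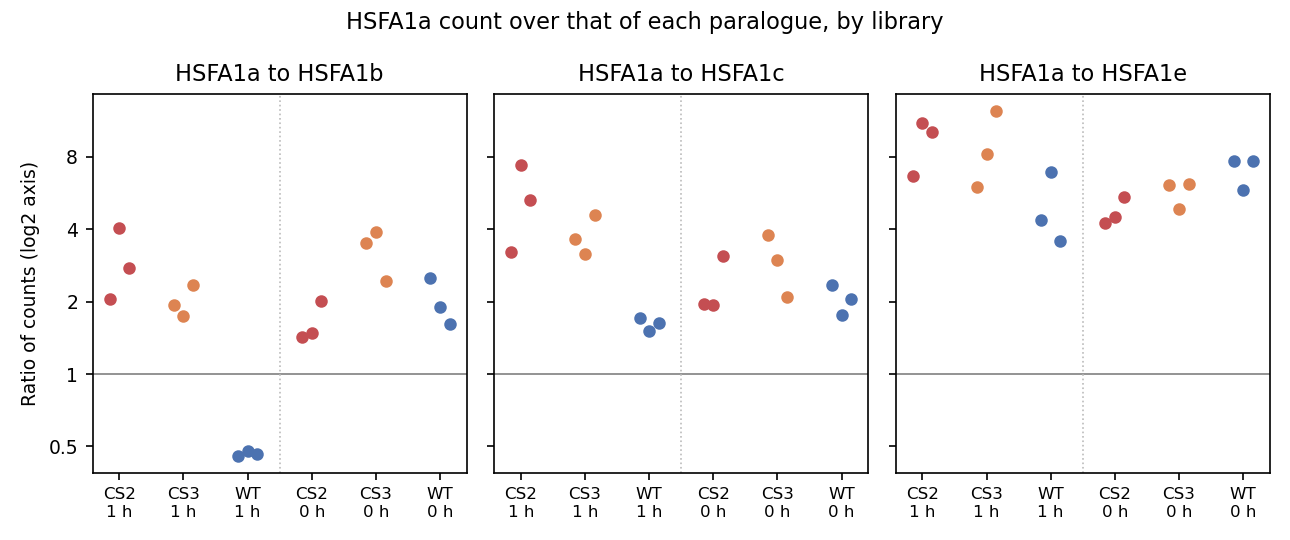
Count of HSFA1a divided by that of HSFA1b, HSFA1c and HSFA1e (y axis, log2 scale, 0.5 added to each count) in each library of CS2 (red), CS3 (orange) and WT (blue) at 1 h and 0 h. In WT at 1 h the ratio to HSFA1b is 0.458 to 0.479, below 1, whereas it is 1.75 to 4.04 in the lines.

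To compare levels between the paralogues, CPM were divided by the length of the gene span in kb. Such levels depend on the length of introns, since the spans include them. At 1 h the order in CS2 was HSFA1a (19.1 ± 3.19 CPM per kb), HSFA1b (11.7 ± 2.03), HSFA1c (5.04 ± 1.26) and HSFA1e (3.81 ± 0.37), where only HSFA1c and HSFA1e overlapped (SD, n = 3 each). In CS3 it was HSFA1a (20.8 ± 3.28 CPM per kb) and HSFA1b (18.1 ± 2.66), which overlapped, then HSFA1c (7.30 ± 1.31) and HSFA1e (4.49 ± 0.91). In WT at 1 h it was HSFA1b (47.4 ± 5.93 CPM per kb), HSFA1a (12.7 ± 1.48) and HSFA1c (10.3 ± 1.20), of which the last pair overlapped, then HSFA1e (4.99 ± 1.39).

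At 0 h HSFA1a and HSFA1b overlapped in CS2 (12.2 ± 0.955 and 13.1 ± 1.56 CPM per kb) and in WT (13.3 ± 1.70 and 11.7 ± 1.21). In CS3, HSFA1a stood at 13.8 ± 2.18 CPM per kb, above HSFA1b at 7.57 ± 1.98, which overlapped with HSFA1c at 6.39 ± 1.58 (SD, n = 3 each). HSFA1e was lowest in each genotype, at 4.76 in CS2, 4.43 in CS3 and 3.48 CPM per kb in WT.

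Added over the 4 genes, the level at 1 h was 39.7 ± 1.07 CPM per kb in CS2 and 50.7 ± 5.51 in CS3, against 75.4 ± 8.43 in WT (SD, n = 3 each). Every line library (38.7 to 55.4 CPM per kb) lay below every WT library (67.5 to 84.3). Taken singly, 15.7% of all tested genes were separated in this direction. HSFA1b was itself among them and made up most of the WT sum, so this separation is no result apart from that of HSFA1b. HSFA1a made up 48.3% of the sum in CS2 and 41.1% in CS3, against 16.9% in WT, and HSFA1b 29.4% in CS2 and 35.6% in CS3, against 62.8% in WT. At 0 h the sums were 37.1 ± 2.58 CPM per kb in CS2, 32.2 ± 4.12 in CS3 and 37.0 ± 1.35 in WT. The sum adds read counts, and in the lines native HSFA1a mRNA and hairpin RNA cannot be told apart in them. The line sums and the shares in the lines carry this limit. The proteins of these genes were not measured.

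**Figure D5:**
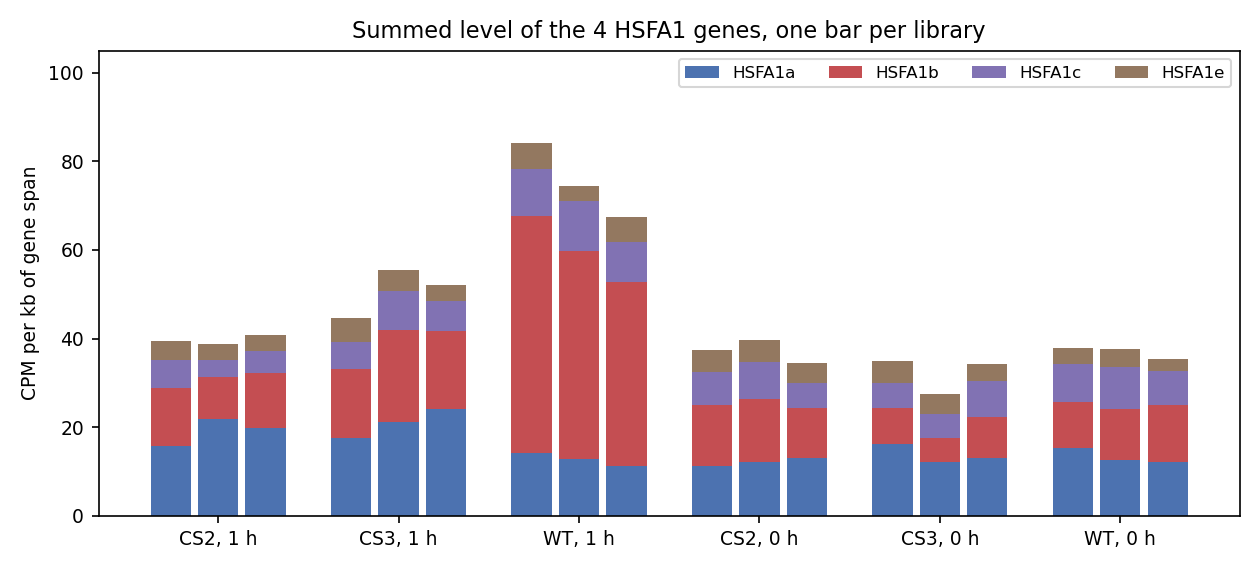
Level of the 4 HSFA1 genes per library (y axis, CPM per kb of gene span, stacked from 0; blue HSFA1a, red HSFA1b, purple HSFA1c, brown HSFA1e), with 1 bar per library of CS2, CS3 and WT at 1 h and at 0 h. The WT bars at 1 h reach 67.5 to 84.3 CPM per kb, mostly HSFA1b, and the line bars at 1 h 38.7 to 55.4.

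Among themselves the paralogues varied in different ways over the 18 libraries, which share depth, line and time. Pearson's r of log2 CPM was 0.67 for HSFA1b with HSFA1c, the highest of the 6 pairs, -0.09 for HSFA1a with HSFA1b and -0.45 for HSFA1a with HSFA1c. Over the 9 libraries at 1 h alone it was 0.93 for HSFA1b with HSFA1c, -0.75 for HSFA1a with HSFA1b and -0.64 for HSFA1a with HSFA1c. Of the other tested genes, the profile most like that of HSFA1a over the 18 libraries was Solyc03g007470.4 (r = 0.93), which averaged 88.8 ± 6.69 CPM in the CS2 libraries and 87.1 ± 13.7 CPM in those of CS3 at 1 h, against 40.9 ± 5.47 CPM in WT (SD, n = 3 each). The profile most like that of HSFA1b was Solyc09g074730.3 (r = 0.96), with 51.7 ± 6.28 CPM in the CS2 libraries and 87.5 ± 1.44 CPM in those of CS3 at 1 h, against 255 ± 21.5 CPM in WT. For HSFA1c it was Solyc02g014110.1 (r = 0.86), with 8.4 ± 1.86 CPM in the CS2 libraries and 10.7 ± 2.83 CPM in those of CS3 at 1 h, against 19.8 ± 2.65 CPM in WT. For HSFA1e the highest r was 0.73. None of these genes could be given a name.

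Other genes of the HSFA1 pathway were taken from 2 lists, of which only genes with an annotated name were counted. Of 19 further HSFs 3 had one: HSFA2, HSFA3, an activator known from Arabidopsis to act downstream of DREB2A, and HSFB1, a class B factor described in tomato as a coactivator of HSFA1a. In CS2 at 1 h 3 of the 3 were lower than in WT, and in CS3 1 of the 3, where 15.3% of all tested genes were lower in CS2 and 12.4% in CS3. The medians of the list were -0.94 in CS2 and -0.35 in CS3, against 0.04 and 0.03 over all genes. HSFA3 averaged 219.9 ± 33.1 CPM in the CS2 libraries and 198 ± 17.9 CPM in those of CS3, against 419 ± 74.5 CPM in WT (SD, n = 3 each), with log2 fold changes of -0.94 and -1.08 (edgeR adjusted p = 0.00335 and 0.00193). HSFB1 averaged 53.7 ± 29.5 CPM in the CS2 libraries and 194 ± 41.0 CPM in those of CS3, against 248 ± 30.8 CPM in WT, with log2 fold changes of -2.26 (edgeR adjusted p = 1.4e-05) and -0.35 (edgeR adjusted p = 0.354). The lines differed in it by -1.91 at 1 h (edgeR adjusted p = 0.00182). For HSFA2 the CS2 libraries held 462, 319 and 259 CPM, the CS3 libraries 509, 587 and 434 CPM, and the WT libraries 532, 584 and 434 CPM, and the groups overlapped. It passed the threshold in CS2 (-0.58, edgeR adjusted p = 0.0302) but not without CS2 replicate 2 (0.108) or 3 (0.135) or WT replicate 1 (0.0783) or 2 (0.111).

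Of 12 chaperones and coactivators of the pathway 5 had a name, among them HSP90 and HSP70 genes. All 5 were higher at 1 h than at 0 h in CS2, CS3 and WT, where 28.7%, 26.7% and 24.2% of all tested genes were. Against WT at 1 h, edgeR called 0 of 5 in CS2, where it called 33.1% of all genes, and 0 of 5 in CS3, where it called 24.3%, with medians of 0.01 in CS2 and 0.18 in CS3. Their highest counts reached 0.501 to 0.680 per base of the gene span, and that of HSFA2 0.568. At this density, removal of duplicate reads can hold counts down, and its part in these values was not tested.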

How the data were processed

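The authors deposited whole-number counts of reads per gene, not normalized, for 18 libraries (total 1713285 to 3669618; interval widths reflect this depth). Per the file headers and labels, single-end reads of 75 bp were trimmed (Trimmomatic 0.38), aligned to the M82 assembly, filtered at mapping quality 30, stripped of PCR duplicates and counted by strand over gene spans (featureCounts 2.0.0), multi-mapping and overlapping reads included. The paper names STAR, the files and labels Bowtie2. The paper describes biological replicates as pools of plants but gives fewer than the 3 libraries of each condition in the table, so p-values measure the spread between these libraries, which may be partly technical.

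Columns were assigned to line, time and replicate by name. edgeR 4.0.16 (quasi-likelihood F test) was run on genes reaching 50 counts in 2 or more libraries (R 4.3.3, limma 3.58.1; TMM; 6 conditions in 1 fit; Benjamini-Hochberg, threshold 0.05). DESeq2 1.42.0, other scalings and filters, a fit of the libraries compared, a replicate block and leaving out each library were alternatives; comparisons of CS2 with CS3, and leaving out libraries or rescaling in permutation tests, were added after the data were seen. CPM use TMM library sizes, with a prior count of 2 on the log2 scale. The test was tested on simulated data. Members and lists were chosen with earlier results of these data known. Names beyond the 4 members follow the paper (HSFA2) or gene order around RefSeq genes of SLM_r2.1 (60000 bases, tolerance 1500 bases). Named are the members, HSFA2, the gene most like each member, and list genes past the threshold for the mean of both lines at 1 h; hsc70.3 was named after its values were seen.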

Additional observations from a re-analysis of the deposited data

Results flagged for a closer look

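The difference of a member's heat response between genotypes passed the threshold in 3 cases. For HSFA1a in CS2 and WT it was 0.73 on the log2 scale, from 0.66 in CS2 and -0.07 in WT (10.4% of all genes were called higher). Leaving out 1 library lost this call in 4 of 12 fits. For HSFA1b in CS2 and WT it was -2.19, from -0.17 in CS2 and 2.02 in WT (9.35% were called lower), kept in all 12 fits. For HSFA1b in CS2 and CS3 it was -1.41, from -0.17 in CS2 and 1.24 in CS3 (0.104% were called). This last call was lost in 8 of 12 fits. Differences of the same kind passed the threshold for HSFA3 (-1.04 in CS2 against WT, edgeR adjusted p = 0.0253 and over 0.05 without CS2 0 h replicate 1, WT 0 h replicate 2, CS2 1 h replicate 2 or 3 or WT 1 h replicate 2, up to 0.0665), for HSFB1 (-2.09 in CS2 against WT), for the HSP70 gene hsc70.3 (1.42 in CS2 against WT, with 11 to 56 counts in CS2 and 79 to 87 in WT at 0 h), and for the level of HSFB1 between CS2 and CS3 at 1 h (-1.91). Each member was checked for a library far from the rest among the 6 line libraries at 1 h and at 0 h, CS2 and CS3 together. Of these 8 checks 0 found one. The WT groups, with 3 libraries each, were not checked.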

How the results depend on the processing

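Under DESeq2, other scalings and filters, a fit of the libraries compared and the replicate block, no member turned its direction where it was called. HSFA1a and HSFA1b kept their side of the threshold against WT at 1 h in CS2 and CS3. Their log2 fold changes ranged over 0.56 to 0.62 and -2.06 to -2.01 in CS2, and 0.70 to 0.75 and -1.42 to -1.37 in CS3. Fitting the compared libraries alone gave -0.53 for HSFA1c in CS3 at 1 h (adjusted p = 0.0343), -0.52 for HSFA1c between the times in CS2 (0.0567), -0.78 for its response in CS2 against WT (0.0446) and -1.43 for HSFA1b in CS2 against CS3 (0.111). The response of HSFA1b in CS3 against WT passed at -0.82 by library size (0.0458), without a filter (0.0386) and with filterByExpr (0.0427), and at -0.79 in DESeq2 (0.0359). DESeq2 also gave -0.52 for HSFA1c between the times in CS2 (0.0533) and -0.63 for HSFA1b between CS2 and CS3 at 1 h (0.0483). The cause of these shifts was not tested.

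Replicate numbers gave no clear pairing of the samples. The correlation of deviations was -0.40 to 0.41 over 45 same-numbered pairs, with 13 over 0.1. Over pairs with other numbers it was -0.52 to 0.46. On average, 8 of 18 libraries correlated best with their own number. The replicate block changed 2 of 56 calls on members, HSFA1c between the times in CS2 (-0.51, adjusted p = 0.0617) and the response of HSFA1b in CS2 against CS3 (-1.42, adjusted p = 0.0532), and no gene count by over 1.5 times.

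Leaving out 1 library gave these ranges for results that crossed the threshold. Between the times, HSFA1c in CS2 ranged over -0.72 to -0.37 and HSFA1e in WT over 0.38 to 0.73. The response against WT in CS2 was 0.63 to 0.82 for HSFA1a and -0.97 to -0.63 for HSFA1c. That in CS3 was 0.54 to 0.80 for HSFA1a and -0.97 to -0.62 for HSFA1b. The response of HSFA1b in CS2 against CS3 was -1.57 to -1.23. As a description, that of HSFA1e in CS2 against WT was -1.06 to -0.72. In the permutation tests at 1 h the ranges were -0.88 to -0.64 for HSFA1c and -0.47 to -0.10 for HSFA1e. For the ratio of HSFA1a to HSFA1e the range at 1 h was 0.68 to 1.15. At 0 h, as a description only, the ranges were 0.26 to 0.48 for HSFA1e and -0.57 to -0.37 for this ratio.

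The number of genes called at 0 h was 8 in CS2 (35 without a filter, 25 in DESeq2), 35 in CS3 (23 by library size, 97 without a filter, 1 in the fit of the libraries compared, 128 in DESeq2) and 25 for the mean of both lines (71, 6 and 56 without a filter, in the fit of the libraries compared and in DESeq2). With 1 library left out it was 4 to 8, 14 to 38 and 9 to 52. At an unadjusted p under 0.05, 538 genes in CS2 and 1976 in CS3 differed at 0 h. At 1 h CS3 gave 3727 genes (2436 to 3225, the lowest without WT replicate 3), and the response of CS3 against WT 1571 (967 to 1937, the lowest without WT 0 h replicate 3). The 16 genes called for CS2 against CS3 in their response ranged from 7 to 57. The order of the levels per kb was the same by library size in each of the 6 conditions. The coding length as an alternative was not run, because no protein table was used. HSFA1e, with 19 to 56 counts, is the member for which depth limits most what could be detected.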
